A study of Mus musculus with 2 samples.

Results

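The genes described here are 10 liver-secreted plasma proteins of 3 kinds, the inter-alpha inhibitors (Ambp, Itih1, Itih2, Itih3 and Itih4), the fetuins with the related Hrg (Ahsg, Fetub and Hrg) and the retinol carriers (Rbp4 and Ttr). They were taken by their GENCODE M21 symbols and make up 10 of the 55536 Ensembl genes in the quantifications. Polyadenylated RNA was sequenced from liver of healthy B6NCrl mouse embryos at 12.5 days, of both sexes, with no genetic change or treatment in the labels. The livers formed 1 group of 2 replicates, with 120 embryos pooled for replicate 1 and 88 for replicate 2. There was therefore no condition to compare, and a pool hides the spread between embryos.

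Inter-alpha inhibitors are plasma complexes in which heavy chains are bound to bikunin, a Kunitz-type protease inhibitor, through a chondroitin sulphate chain, and the heavy chains can be passed on to hyaluronan in the extracellular matrix. Fetuins and the histidine-rich glycoprotein Hrg belong to the cystatin superfamily and circulate in plasma, where fetuin-A keeps calcium phosphate from precipitating. Rbp4 carries retinol from the liver through the blood and travels bound to transthyretin, the product of Ttr, which also carries thyroxine. Hepatocytes are a main source of all these proteins in the adult.

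Among the genes, 8 of 10 were at 1 TPM (the share of transcripts on a common scale, corrected for length) or more, set against 54.5% of 21951 protein-coding genes. At 10 TPM or more stood 7 of 10, against 32.1% of protein-coding genes, and at 100 TPM or more 5 of 10, against 5.4%. The median level was 109.5 ± 1.47 TPM (SD, n = 2) for the 10 genes and 1.85 ± 0.0141 TPM for all protein-coding genes. The 10 genes together held 0.235% of all TPM in replicate 1 and 0.233% in replicate 2. Their summed level was 2338 ± 13.4 TPM, of which Rbp4 alone gave 1200 ± 1.18 TPM. An SD of 2 values can be small by chance, so here and below it is not the precision of a level or ratio. The levels ran from about 0.1 TPM for Hrg to above 1000 TPM for Rbp4, so the set spans genes near the detection limit and genes near the top of the tissue's messages. Of 25 other plasma protein genes, 24 were at 1 TPM or more and 17 at 100 TPM or more, with a median of 161 ± 2.95 TPM. The highest of these were Afp at 5157, Trf at 2395, Apoa2 at 2160 and Apoa1 at 1211 TPM, which encode alpha-fetoprotein, transferrin and a pair of apolipoproteins, and A1bg was listed at 0 in both libraries.

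**Figure D1:**
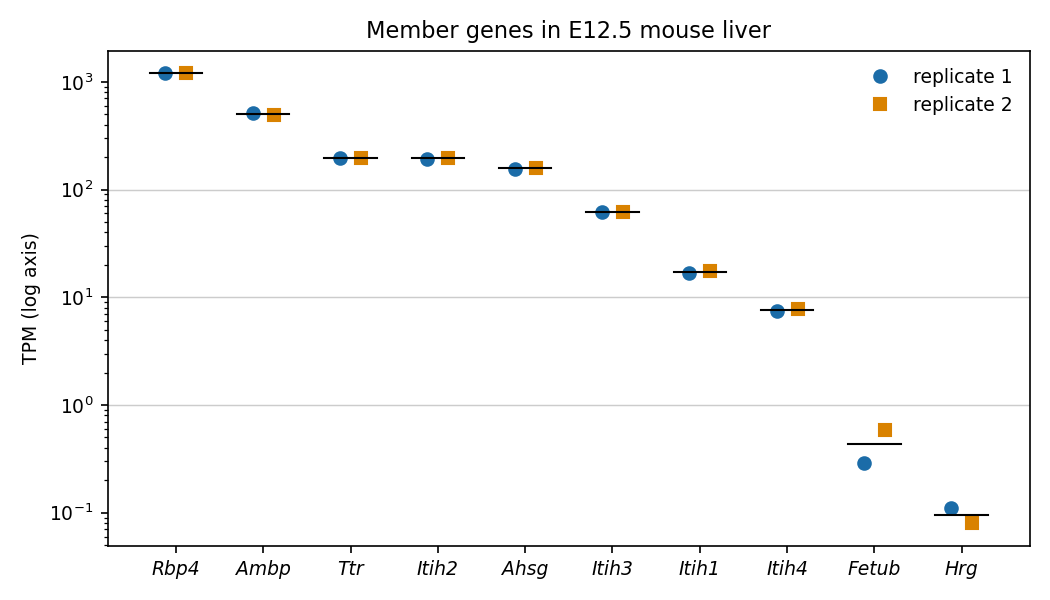
TPM of each of the 10 genes (log axis) in replicate 1 (circles) and replicate 2 (squares), with the mean as a line. Rbp4 stands at 1200 TPM and Hrg at 0.095 TPM, and the replicates lie apart by eye for Fetub and Hrg.

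The libraries carried 38293265 expected counts in replicate 1 and 35399872 in replicate 2, and spike-ins took 4.99% and 5.40% of TPM. All 6 hepatoblast markers were at 10 TPM or more and summed to 6619 ± 133 TPM, and all 4 erythroid markers were at 100 TPM or more and summed to 1677 ± 22.8 TPM. Markers of the other cells of the organ summed to 780 TPM for megakaryocytes, 302 TPM for stellate cells and mesenchyme, 92.5 TPM for macrophages, 57.1 TPM for endothelium and 11.8 TPM for mesothelium. Few genes can carry such a sum. Afp had 5157 TPM where the hepatoblast marker Hnf4a had 12.8 TPM, and Pf4 673 TPM where Gp9 had 35.6 TPM. Among stellate and mesenchyme markers, Col3a1 and Col1a1 had 161 and 121 TPM and Des 5.965 TPM. The sums therefore give no order of cell types. None of 6 mature hepatocyte enzymes reached 1 TPM, and G6pc was listed at 0. In such bulk tissue, fewer cells of a type and less RNA per cell cannot be told apart.

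Bikunin's gene was the highest of the inter-alpha inhibitor genes. Ambp (ENSMUSG00000028356.4, mm10 chr4:63143275-63154799, minus strand) encodes a precursor that is cut into alpha-1-microglobulin, a lipocalin that binds haem, and bikunin. It stood at 516.07 TPM in replicate 1 and 490.17 TPM in replicate 2, from 19701 and 17325 expected counts, and ranked 178 among protein-coding genes. Its mean was 503 ± 18.3 TPM. The transcript Ambp-201 held 99.97% of the gene's TPM in replicate 1 and 99.96% in replicate 2, so the level is that of 1 message. The nearest protein-coding genes were far lower, with Zfp618 at 4.27 ± 0.799 TPM and Kif12 at 5.98 ± 0.0636 TPM.

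The heavy chain genes formed a steep order. Itih2 (ENSMUSG00000037254.18, chr2:10094593-10131396, minus strand), which encodes heavy chain 2, was measured at 192.69 TPM in replicate 1 and at 196.58 TPM in replicate 2. Itih3 (ENSMUSG00000006522.17, chr14:30908572-30923760, minus strand), for heavy chain 3 of pre-alpha-inhibitor, had 62.27 and 61.91 TPM. Itih1 (ENSMUSG00000006529.16, chr14:30929180-30943289, minus strand), for heavy chain 1, had 16.83 and 17.72 TPM. Heavy chains 1 and 2 sit together on bikunin in inter-alpha-inhibitor of plasma. Itih4 (ENSMUSG00000021922.17, chr14:30886476-30902353, plus strand), whose product circulates without bikunin, had 7.39 and 7.70 TPM. No replicate value of any heavy chain gene overlapped with that of another. The means were 195 ± 2.75 TPM for Itih2, 62.1 ± 0.255 TPM for Itih3, 17.3 ± 0.629 TPM for Itih1 and 7.55 ± 0.219 TPM for Itih4.

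Of the summed heavy chain TPM, Itih2 held 69.1 ± 0.156%, Itih3 22.1 ± 0.352%, Itih1 6.13 ± 0.151% and Itih4 2.68 ± 0.0460%. The partners of 1 plasma complex were thus unequal as messages, since Itih2 stood 11.3 ± 0.251 times above Itih1, with 11.4 in replicate 1 and 11.1 in replicate 2. Itih2 stood 3.13 ± 0.0572 times above Itih3, Itih3 3.60 ± 0.146 times above Itih1 and Itih1 2.29 ± 0.0169 times above Itih4. Ambp was 1.79 ± 0.0863 times the sum of the heavy chains, 2.59 ± 0.131 times Itih2 and 29.2 ± 2.12 times Itih1. The ratio of Ambp to the sum depends on the division by length, as Ambp-201 has 1268 bases and the main Itih2 transcript 3100. On expected counts it was 0.710, below 1, and the ratio to Itih2 was 1.01. These are ratios of messages and say nothing of the amounts of protein. The ratios and the heavy chain shares take all transcripts of a gene, also those annotated as retained intron. Such transcripts held 26.6% of Itih3 in replicate 1 and 25.0% in replicate 2, and 21.8% and 36.2% of Itih4. They held 9.98% and 12.1% of Itih1 and 0% of Itih2 in both. Ratios of coding transcripts alone were not computed.

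Genes for the chondroitin chain of bikunin, with the precursor protease Furin, had a median of 7.10 ± 0.262 TPM. Of these 13 genes, 12 were at 1 TPM or more, against 54.5% of protein-coding genes, and 3 at 10 TPM or more, against 32.1%. The highest were the linkage enzyme B3gat3 at 25.2 TPM, the polymerising factors Chpf2 and Chpf at 14.3 and 11.5 TPM, and the chondroitin synthase Chsy1 at 9.75 TPM. The lowest was the xylosyltransferase Xylt1 at 0.465 TPM. Of 14 matched genes that make, bind or break down hyaluronan or move heavy chains onto it, 8 were at 1 TPM or more and 5 at 10 TPM or more, with a median of 3.13 ± 0.414 TPM. The hyaluronan-binding Hmmr stood at 67.7 TPM, the hyaluronidase Hyal2 at 46.7 TPM, and the endothelial receptors Stab2 and Lyve1 at 24.6 and 23.1 TPM. The hyaluronan synthases Has2 and Has3 were the lowest, at 0.06 and 0.03 TPM in both libraries. Tnfaip6, the enzyme that transfers heavy chains to hyaluronan, was at 0.38 TPM in replicate 1 and at 0.57 TPM in replicate 2, and is named here for its role after its values were seen.

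**Figure D2:**
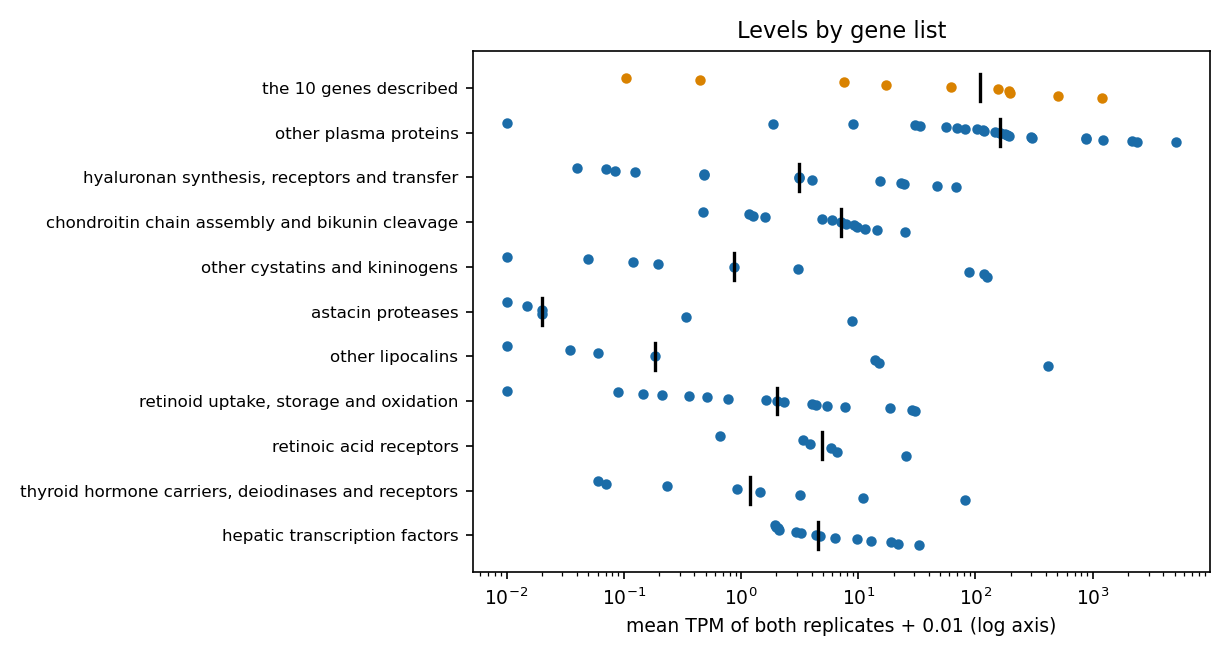
Mean TPM of both replicates plus 0.01 (log axis) of every gene in each list, with the 10 genes described at the top and a line at each list's median. The median was 109.5 TPM for the 10 genes, 161 TPM for other plasma proteins and 7.10 TPM or lower for the other lists.

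The deposited estimate divided Itih3 messages mainly between a coding transcript and one that keeps an intron. Itih3-201 held 71.6% of the gene's TPM in replicate 1 and 73.4% in replicate 2, and Itih3-204, annotated as retained intron, 25.1% and 25.0%. Itih3-204 rested on 1633 and 1500 expected counts with posterior SDs of 5.31% and 5.52% of them. It keeps intron 9 of 21, the 487 bases at chr14:30917788-30918274, which begin with GT, end with AG and hold 52.2% G and C. The kept bases bring a stop codon into the reading frame of Itih3-201 that starts at base 24 of the intron. The annotated starts differ too, at chr14:30923760 for Itih3-201 and chr14:30923587 for Itih3-204. Reads over the intron or its joins were not counted, so the share of Itih3-204 does not measure the kept intron alone. The junctions are printed 5′ to 3′ on the minus strand from the GENCODE M21 transcripts (mm10) to show where the intron sets these messages apart. Capitals mark the kept intron and lower case the exons.
Itih3-204, start of the kept intron: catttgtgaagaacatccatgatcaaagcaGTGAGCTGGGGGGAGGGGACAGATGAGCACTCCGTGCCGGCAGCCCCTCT
Itih3-204, end of the kept intron: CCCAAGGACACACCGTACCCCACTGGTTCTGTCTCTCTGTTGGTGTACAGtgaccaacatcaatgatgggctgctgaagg
Itih3-201, the same join: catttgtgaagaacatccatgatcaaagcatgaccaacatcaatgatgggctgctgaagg
In the earlier GENCODE M4 quantification Itih3-204 had no entry, and a transcript of equal length, 3302 bases, under another identifier held 24.7% of Itih3 in each library.

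The transcripts of Itih1 and Itih4 were less well resolved. Itih1-202 held 87.7% of Itih1 in replicate 1 and 76.0% in replicate 2, and Itih1-201 2.32% and 11.9%. These differ in their coding exons by 12 bases at chr14:30942627-30942638 (minus strand), in capitals here, that Itih1-201 includes.
Itih1-201: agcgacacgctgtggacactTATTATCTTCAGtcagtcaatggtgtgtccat
Itih1-202: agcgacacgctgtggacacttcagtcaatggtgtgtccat
The posterior SD of Itih1-201 was 139% of its 37.9 counts in replicate 1 and 32.4% of its 190 counts in replicate 2, so the division between this pair is uncertain while the sum is not. A short transcript of 353 bases annotated as retained intron, Itih1-203, held 9.98% and 12.1% of TPM on 13.9 and 16.5 counts. For Itih4, the shares of Itih4-202 were 52.1% in replicate 1 and 31.7% in replicate 2, those of Itih4-203 were 16.4% and 22.2%, and those of the retained-intron transcript Itih4-205 were 21.8% and 36.2%. Itih4-205 is a fragment of 795 bases with 36.6 and 58.7 counts, and counted as reads it held 8.73% of the gene. Itih4-202 includes an exon of 48 bases at chr14:30897526-30897573 (plus strand), Itih4-203 includes it with 3 more bases in front, and Itih4-204 lacks it; capitals mark what Itih4-204 lacks.
Itih4-202: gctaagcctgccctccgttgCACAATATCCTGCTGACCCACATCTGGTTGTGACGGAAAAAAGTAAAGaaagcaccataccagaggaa
Itih4-203: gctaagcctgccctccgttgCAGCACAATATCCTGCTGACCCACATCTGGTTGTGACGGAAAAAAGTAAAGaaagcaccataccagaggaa
Itih4-204: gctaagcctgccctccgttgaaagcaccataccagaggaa
Itih4-204 held 9.74% and 9.87%, with posterior SDs of 41.0% and 50.4% of its 66.1 and 65.3 counts. Under GENCODE M4 the coding transcripts of Itih4 were ranked otherwise, with 22.6% and 37.4% for Itih4-201, which had 0 TPM under M21, and with 0 for Itih4-203. The posterior mean counts of Itih4-201 under M21 were 33.3 and 27.5, with posterior SDs of 27.3 and 23.4, so its 0 is not a firm absence. The annotated lengths changed too, to 2980 bases for Itih4-201 under M21, against 3159 bases under M4, and to 3531 bases for Itih4-203 under M21, against 2980 bases under M4.

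**Figure D3:**
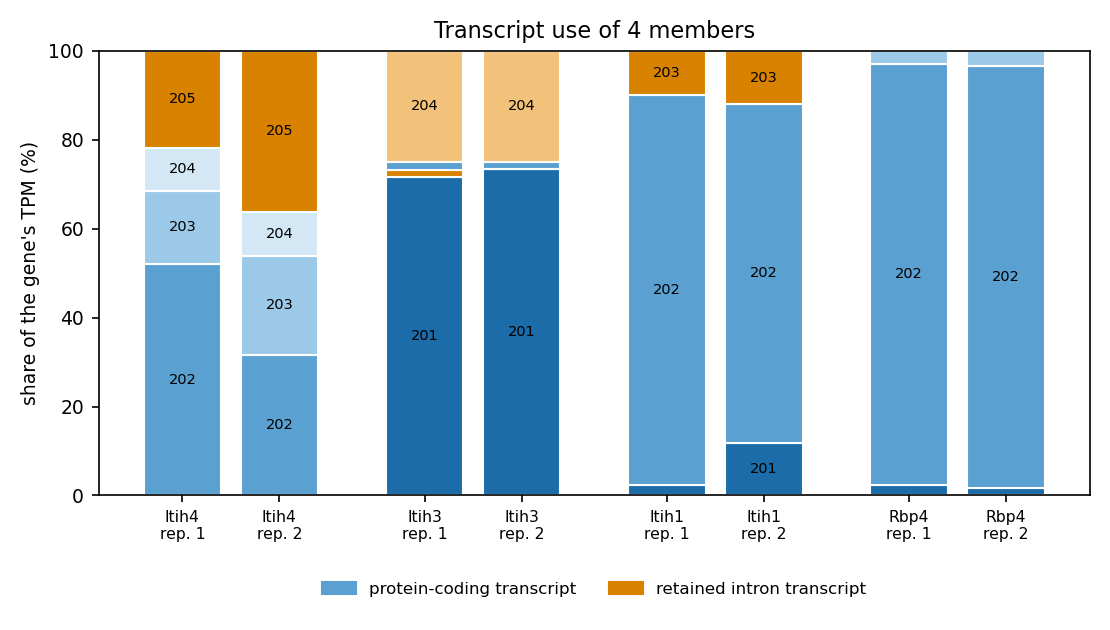
Share of each annotated transcript in the summed TPM of its gene (%) for Itih4, Itih3, Itih1 and Rbp4, with replicate 1 left of replicate 2; numbers in the bars are transcript names, blue marks protein-coding and orange retained-intron transcripts. Itih3-204 holds 25.1% and 25.0% of Itih3 and Itih3-201 71.6% and 73.4%, while Itih4-202 moves from 52.1% to 31.7% of Itih4.

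The genes of the fetuin cluster were far apart in level, with Ahsg above 100 TPM and Fetub and Hrg the lowest. Ahsg (ENSMUSG00000022868.6, chr16:22891277-22899449, plus strand), which encodes fetuin-A, reached 154.66 TPM in replicate 1 and 159.19 in replicate 2, with a mean of 157 ± 3.20 TPM and 6955 and 6618 counts. Fetub (ENSMUSG00000022871.13, chr16:22918334-22939778, plus strand) encodes fetuin-B, which holds the egg protease ovastacin in check. It had 0.29 and 0.58 TPM on 11 and 19 counts, with exact 95% Poisson intervals of 5.49 to 19.7 and 11.4 to 29.7 counts that overlap. Hrg (ENSMUSG00000022877.9, chr16:22951072-22961656, plus strand) encodes a plasma protein that binds heparin and metal ions. It had 0.11 and 0.08 TPM on 5 and 4 counts, with intervals of 1.62 to 11.7 and 1.09 to 10.2 counts. The files thus hold Fetub and Hrg at a few reads, and the deposited credibility bounds of the 2 genes overlapped in replicate 1, at 0.243 to 0.689 TPM for Fetub and 0.0492 to 0.327 TPM for Hrg, but not in replicate 2, at 0.422 to 0.995 and 0.0397 to 0.263 TPM.

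Ahsg exceeded Fetub by 533 times in replicate 1, with a 95% interval of 298 to 1069, and by 274 times in replicate 2, with an interval of 176 to 456. It exceeded Hrg by 1406 times in replicate 1, with an interval of 602 to 4332, and by 1990 times in replicate 2, with an interval of 777 to 7305; by posterior mean TPM the mean ratio was 982, against 1698 by the TPM used here. The intervals cover counting error only, and reads made by PCR without molecular identifiers are not independent molecules. All 3 genes lie on the same strand within 70.4 kb. Around them, low and high genes stood side by side. Dnajb11, an endoplasmic reticulum chaperone 11.6 kb before Ahsg, had 80.8 ± 1.82 TPM, and Kng2, a kininogen gene 24.2 kb past Hrg, had 0.855 ± 0.106 TPM. Beyond it Kng1, a further kininogen gene, stood at 124 ± 3.71 TPM.

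**Figure D4:**
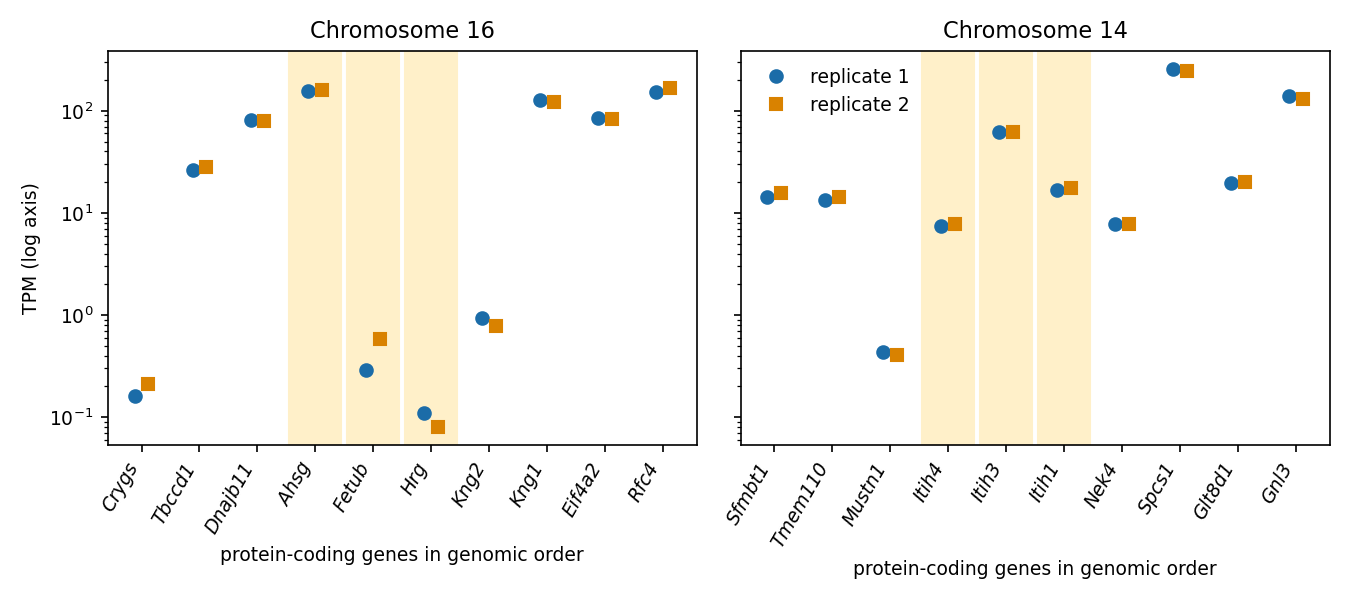
TPM (log axis) of protein-coding genes in genomic order around the fetuin cluster on chromosome 16 and the heavy chain cluster on chromosome 14, with members shaded, in replicate 1 (circles) and replicate 2 (squares). Fetub and Hrg lie under 1 TPM between Ahsg at 157 TPM and Kng1 at 124 TPM.

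The heavy chain genes Itih4, Itih3 and Itih1 lie within 56.8 kb in that order, and the middle gene was the highest of the 3. The flanking genes Mustn1 and Nek4 had 0.42 ± 0.0141 and 7.80 ± 0.0495 TPM. Itih2 lies on another chromosome between Kin at 20.0 ± 0.403 TPM and Itih5, a further heavy chain gene, at 4.06 ± 0.304 TPM. For Ahsg, the coding transcript Ahsg-201 held 98.2% in replicate 1 and 97.7% in replicate 2. The antisense gene Gm30505 overlaps Ahsg and had 0.18 and 0.04 TPM; whether strand was used in counting is not given in the sources used here, so reads of the pair may not be separable. The other 9 genes overlap no gene annotated in M21.

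Of 9 other cystatins and kininogens, 4 were at 1 TPM or more, against 54.5% of protein-coding genes. These were Kng1 at 124, the secreted inhibitor Cst3 at 118, the intracellular inhibitor Cstb at 87.8 and the leukocyte cystatin Cst7 at 3.05 TPM. Cst8 stood at 0.04 TPM and Cst12 was listed at 0. Of 6 astacin proteases, the family that holds the target of fetuin-B, Bmp1 alone reached 1 TPM, at 8.78 TPM. Tll1 had 0.33 TPM, Astl and Mep1b 0.01 TPM each and Tll2 0.005 TPM, and Mep1a was listed at 0. Astl encodes ovastacin and was listed at 0 in replicate 1 and at 0.02 TPM in replicate 2.

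Rbp4 was the highest of the 10 genes and ranked 53 of all protein-coding genes. Rbp4 (ENSMUSG00000024990.13, chr19:38116629-38125281, minus strand), the plasma carrier of retinol, reached 1200.78 TPM in replicate 1 and 1199.11 in replicate 2, on 32480 and 29889 counts. Ttr (ENSMUSG00000061808.4, chr18:20665280-20674321, plus strand) had 196.36 and 195.50 TPM on 6972 and 6427 counts, with a mean of 196 ± 0.608 TPM. Rbp4 stood 6.12 ± 0.0130 times above Ttr, with 6.12 in replicate 1 and 6.13 in replicate 2. Without division by length the ratio was 4.65. Ttr and Itih2 overlapped in their replicate values and are not apart in the order, whereas all 8 other pairs of neighbours in the order of the 10 genes were apart in their replicate values.

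Both carriers are also made by other tissues. The 3 visceral yolk sac markers Amn, Lrp2 and Cubn summed to 1.83 TPM in replicate 1 and 2.22 TPM in replicate 2, with Amn alone at 1 TPM or more. The 5 choroid plexus and neural markers summed to 1.67 and 1.61 TPM, mostly from Foxj1 at 0.98 and 1.19 TPM, with Otx2 listed at 0. Kidney markers summed to 0.01 TPM in each library, with Slc34a1 and Umod listed at 0. Gut and pancreas markers summed to 5.84 ± 0.233 TPM, mostly from Fabp2 at 5.085 TPM. Genes next to the carriers were low, with Ffar4 at 0.30 ± 0.212 and Pde6c at 2.83 ± 0.184 TPM beside Rbp4, and Dsg2 at 3.88 ± 0.0707 and B4galt6 at 2.95 ± 0.339 TPM beside Ttr.

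The 4 annotated Rbp4 transcripts fall into an upstream and a downstream group by their starts, which were read from the annotation and not measured as message ends. Transcripts of the downstream group held 97.7% of Rbp4 TPM in replicate 1 and 98.2% in replicate 2, most of it in Rbp4-202 with 94.9% in each and the rest, 2.77% and 3.32%, in the shorter Rbp4-203. Transcripts of the upstream group held 2.35% and 1.82%, and the main one, Rbp4-201, had 936 and 675 counts. The annotated starts of Rbp4-201 and Rbp4-202 lie 420 bases apart. Under M4 the share of Rbp4-201 was 1.35% and 1.11%. That annotation held only Rbp4-201 and Rbp4-202 for this gene, and its Rbp4-201 had 1243 bases, against 1161 under M21. The shares under M4 and M21 are therefore not of the same set of transcripts. Ttr has 1 annotated transcript.

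The promoters of both Rbp4 groups are printed because the groups hold such unequal shares of the same gene. Each is the 250 bases before a RefSeq start (GRCm38.p6), 5′ to 3′ on the minus strand, and capitals mark a motif match. The RefSeq starts are not those of GENCODE, with Rbp4-202 beginning 17 bases before the downstream one and Rbp4-201 73 bases past the upstream one, and 124 of the 250 bases printed for the downstream start lie in annotated exons.
Rbp4 upstream start, chr19:38125322-38125571: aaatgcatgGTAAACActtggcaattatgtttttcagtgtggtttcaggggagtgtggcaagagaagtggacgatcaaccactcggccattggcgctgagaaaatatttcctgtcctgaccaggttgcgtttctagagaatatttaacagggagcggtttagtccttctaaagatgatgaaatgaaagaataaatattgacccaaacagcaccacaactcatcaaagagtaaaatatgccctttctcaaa
Rbp4 downstream start, chr19:38124812-38125061: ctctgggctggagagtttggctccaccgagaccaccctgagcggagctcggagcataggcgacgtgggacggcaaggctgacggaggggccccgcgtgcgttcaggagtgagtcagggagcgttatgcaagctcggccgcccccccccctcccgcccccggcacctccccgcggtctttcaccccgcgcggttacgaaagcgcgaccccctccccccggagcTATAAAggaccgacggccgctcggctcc
With the 50 bases after the start included, the downstream window held 72.0% G and C and 40 CpG, and the upstream window 40.7% and 5, where the median of 32851 RefSeq promoters is 52.7% and 7. The capitals at the downstream start are the TATA motif (TATAAA), 28 to 23 bases before the RefSeq start and 11 to 6 before the start of Rbp4-202, which 13.6% of all promoters hold on either strand. The capitals at the upstream start are the FOXA motif (TGTTTAC) on the opposite strand, which 3.65% of all promoters hold. The 5 motifs were searched on both strands in 11 promoters of 9 of the genes, and Ttr was not among them. The FOXA motif was also in a promoter of Fetub, and TATAAA in those of Fetub, Hrg, Itih3 and Itih4, where it lay 31 to 26 bases before the RefSeq start in Fetub and at or next to the start in the other 3. In Itih4 it was on the opposite strand. Of the 250 bases before the Itih3 RefSeq start, 173 lie in annotated exons. The HNF1 motif GTTAATNAT, the C/EBP motif TTGCNNCAA and the HNF4 motif CAAAGTCCA were in 0 of the 11, where 0.801%, 2.08% and 0.475% of all promoters hold them. A match is a description of letters, and the lack of one says only that these letters are not in these windows.

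Genes of retinoid handling were lower than the carrier. Of 17 genes for uptake, storage and oxidation of retinoids, 10 were at 1 TPM or more, against 54.5% of protein-coding genes. At 10 TPM or more stood 3 of the 17, against 32.1%, and their median was 2.04 ± 0.304 TPM. The retinal reductases Dhrs3 and Rdh11 stood at 28.8 and 18.8 TPM and the retinoic acid-binding protein Crabp1 at 7.65 TPM. The retinoic acid hydroxylase Cyp26a1 was at 0.08 TPM and Cyp26c1 was listed at 0. Stra6, the cell-surface receptor of Rbp4, had 0.50 and 1.03 TPM, and the related receptor gene Stra6l 2.11 and 2.50 TPM. Lrat, which esterifies retinol for storage, had 0.41 and 0.29 TPM; all 3 are named for their roles after their values were seen. Of 6 retinoic acid receptor genes, 5 were at 1 TPM or more, led by Rxrb at 25.3, Rarb at 6.63, Rara at 5.82 and Rarg at 3.89 TPM, with Rxrg at 0.655 TPM.

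Of 7 other lipocalins, the family of Rbp4 and of the microglobulin part of Ambp, 3 were at 1 TPM or more. Among all protein-coding genes, 54.5% were at that level. Apom, an apolipoprotein that binds small lipids, stood at 415 TPM, the complement chain C8g at 15.2 TPM and the siderophore-binding Lcn2 at 13.8 TPM. Ptgds was at 0.175 TPM, Orm2 at 0.025 TPM and Orm1 was listed at 0. Of 8 genes of thyroid hormone transport and use, 4 were at 1 TPM or more. The amino acid and thyroid hormone transporter Slc16a10 stood at 81.2 TPM and the receptors Thra and Thrb at 11.0 and 1.44 TPM. The deiodinases Dio1 and Dio2 were at 0.06 and 0.05 TPM.

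After scaling by TMM, 0 of 9 genes tested passed 2-fold with an exact 95% binomial interval that excluded equality, against 2.38% of the 17369 genes that averaged 10 counts or more; Hrg averaged fewer. At a share this low, 0 of 9 sets the genes apart from no others. Of the 12050 genes that averaged 100 counts or more, 0.149% passed, and 0 of the 8 genes described that are among them. The largest ratio was that of Fetub, with 11 counts in replicate 1 and 19 in replicate 2 and a log2 ratio of -0.87 (interval -2.12 to 0.24). Itih4 followed at 0.11 (-0.06 to 0.28) and Ambp at 0.07 (0.04 to 0.10). The intervals of Ambp and of Itih2, at -0.03, excluded 0, and those of the other 7 included it, where 22.6% of all genes tested had an interval that excluded 0. Among the 8495 genes that averaged 500 counts or more, the median size of the log2 ratio was 0.0558, so both of these lie near the usual spread of the libraries. Scaled by spike-ins, the median of all genes moved by 0.12 on the log2 scale, and the ratios of Itih1, Itih2, Itih3 and Ahsg, negative under TMM, became positive, with Itih2 at 0.09. The comparison is of 2 libraries, with counting error only, and not of conditions. For Itih4, the counts were higher in replicate 1 while the TPM was lower there, and its transcript shares differed as given above.

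**Figure D5:**
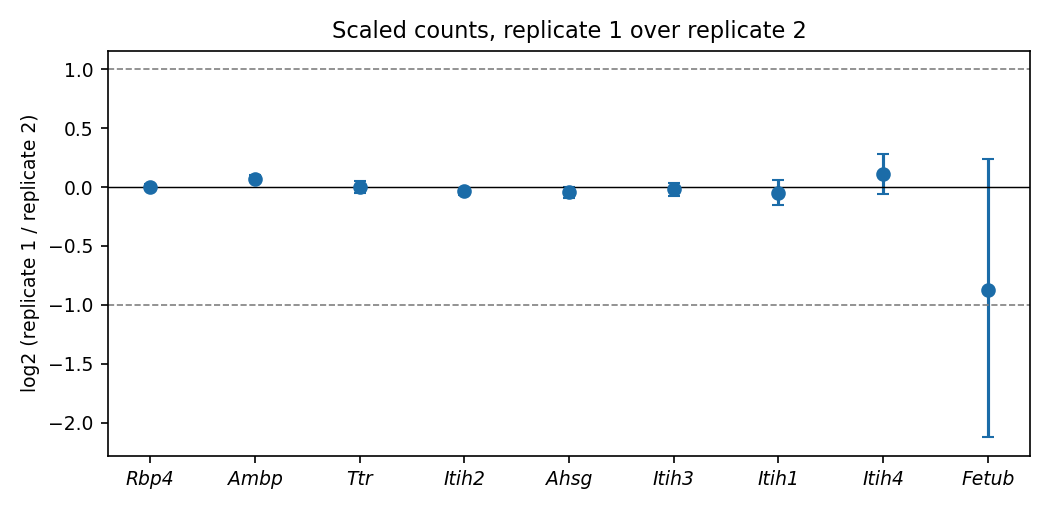
Log2 ratio of TMM-scaled counts, replicate 1 over replicate 2, for 9 genes, with exact 95% binomial intervals as bars and 2-fold as dashed lines. The interval of Fetub, -2.12 to 0.24, is the widest, and no gene passes 2-fold with an interval that excludes 0.

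The choice of annotation moved the levels little. Of 8 genes at 1 TPM or more, 0 differed by over 1.5-fold between GENCODE M21 and GENCODE M4 in both libraries, against 5.38% of 13620 genes. With so low a share over all genes, 0 of 8 is no trait of the genes described. The log2 ratios of M21 over M4 ran from -0.10 for Itih4 to -0.01 for Ttr, with a median of -0.05, against a median of -0.04 over all genes. Rbp4 had 1200.78 and 1199.11 TPM under M21 and 1228.40 and 1221.60 TPM under M4. The deposited posterior SD of the gene counts was 0 for all 10 genes, so the deposited estimate gave uncertainty to the division among the transcripts of a gene only; it does not settle the strand of reads at Ahsg and Gm30505.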

How the data were processed

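RNA was extracted with mirVana from pooled livers, 10 ng was used with ERCC spike-ins, and libraries were made with SMARTer Ultra Low cDNA synthesis and Nextera tagmentation, per the labels. Expected counts, their posterior means and posterior SDs, TPM with its credibility bounds (a signal in TPM per the file headers, on the scale of the posterior mean) and the isoform percent of each transcript were deposited by the authors for GENCODE M21 and M4 on mm10. No source used here gives the aligner, the quantifier or the use of strand. M21 was used unless M4 is named, and 26249 entries with bare numbers and 96 spike-ins were left out of gene sets.

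Levels are TPM per replicate with mean ± SD over the 2 replicates, which are separate pools. Transcript shares were computed from TPM. Expected counts rounded to whole numbers were scaled by TMM (edgeR 4.0.16, prior count 0.5, mean of at least 10 counts) and compared between replicates with exact 95% binomial intervals, a step that was tested on simulated counts. Annotations were compared as log2((TPM + 1)/(TPM + 1)). Alternatives used DESeq2 1.42.0 size factors, total counts, spike-ins, M4, posterior mean TPM, TPM rescaled over Ensembl genes, other filters and pseudocounts, and each replicate alone. From each list the 4 highest genes and up to 2 lowest under 1 TPM were named, with the nearest protein-coding genes and transcripts at 10% in both replicates; others were named for a role or for a difference in sequence, and a few selected genes are not reported here. The genes and lists were chosen with earlier results of these data known. Itih6 found no match by symbol, and protein sequences were not analysed here.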

Additional observations from a re-analysis of the deposited data

How the results depend on the processing

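The counts at 1, 10 and 100 TPM held without either replicate. The median TPM was 113 under M4, 108 as posterior mean and 116 rescaled over Ensembl genes, and the summed TPM 2400, 2291 and 2466. On expected counts with no length, Ambp over the summed heavy chains was 0.710, Itih2 over Itih1 12.6 and Rbp4 over Ttr 4.65. With 1 TPM added, Itih2 over Itih1 was 10.7, Rbp4 over Ttr 6.10, Ahsg over Fetub 111 and Ahsg over Hrg 144. Rbp4 over Ttr was 6.21 under M4, and Ahsg over Hrg 982 by posterior mean. The length step and the added TPM set their moves by construction; for M4 and the posterior mean the cause was not tested. The genes that differed between replicates numbered 414, but 753 with no count filter and 18 at a mean of at least 100 counts. None of the genes described was called under any setting, and DESeq2 size factors left the count at 414. Fetub and Hrg rest on 4 to 19 counts, which limits every ratio that holds them. No paired analysis was possible because the data hold 1 group.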

Other observations

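All 14 hepatic transcription factor genes listed were at 1 TPM or more, against 54.5% of protein-coding genes. At 10 TPM or more stood 4 of the 14, against 32.1%, and their median was 4.55 ± 0.103 TPM (SD, n = 2). Hhex, a homeobox factor of liver budding, stood at 33.0 TPM, the forkhead factor Foxa3 at 21.8 TPM, Cebpb at 18.9 TPM and the nuclear receptor Hnf4a at 12.8 TPM. These values stand beside the 10 plasma protein genes as levels in the same libraries, and no relation between them was tested.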
